A study of Mus musculus with 24 samples.

Results

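Small intestinal (SI) organoids that carried both BRAFV600E and p53R172H were compared after induction (on) with the same organoids left non-induced (off). The comparison rests on 4 of the 24 organoid libraries of the series, 2 on and 2 off, taken by their labels, and the response is described over all expressed genes. Organoids are epithelial cultures grown in gel from intestinal crypts. The donor was a C57BL/6N mouse of genotype BraffloxV600E/+, Trp53LSL-R172H/+, Villin::CreERT2, so that both the on and the off organoids carried the floxed alleles and a Cre driven by the Villin promoter of intestinal epithelium. The on organoids received 4-hydroxytamoxifen at 0.5 µM for 24 h, the off organoids received ethanol, and RNA was isolated on day 8. Off organoids expressed wild-type BRAF from the floxed allele, and a stop cassette kept the p53R172H allele silent. SI organoids with the BRAF allele alone (BRAF) or the p53 allele alone (p53) had 2 on and 2 off libraries each, treated in the same way. They shared 1 fit of 12 SI libraries with the double genotype (BRAFp53). Responses were compared with those of BRAF organoids only, and the p53 libraries entered the shared estimate of spread. Each genotype came from 1 donor culture induced in duplicate, so the spread between libraries is that of handling and not of animals, and p-values refer to that spread.

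BRAF is a kinase of the RAF-MEK-ERK cascade, which carries growth factor signals to transcription factors of the AP-1 and ETS families. The V600E mutant signals without an upstream input, and ERK then induces its own phosphatases and other feedback inhibitors. p53 is a transcription factor that arrests the cycle or triggers apoptosis under stress, and R172H, which corresponds to a hotspot of human tumours, acts in a dominant-negative manner. The epithelium of the small intestine holds stem cells, Paneth cells that secrete antimicrobial peptides, goblet cells that secrete mucin, hormone-producing enteroendocrine cells, tuft cells, and the enterocytes that digest and absorb food through their brush border.

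The 4 libraries held 54699763 to 65613832 counts each. Libraries of 1 group correlated at r of 0.994 on and 0.994 off across genes (log2 scale). Trp53, at 136 and 141 CPM (counts relative to library size, with TMM scaling) off and 224 and 173 CPM on, was higher in both on libraries by 0.52 ± 0.13 on the log2 scale (± standard error, n = 2 libraries per group here and throughout; adjusted p = 0.0236, edgeR quasi-likelihood test). The call of Trp53 was lost when on replicate 1, off replicate 1 or off replicate 2 was left out. Braf stood at 12.7 and 15.8 CPM off and 20.2 and 16.9 CPM on (log2 difference 0.38 ± 0.19, adjusted p = 0.251). Counts per gene do not separate mutant from wild-type transcripts. The strand setting of the counting is not given in the sources used here, and reads of Braf, Cdkn1a, Cdkn1c, Csf1r, Cxcl16, Dclk1, Dusp1, Ghrl, Il1a, Nid1, Nrg4, Plk3 and Psmb8 cannot be told apart from those of a gene annotated on the opposite strand. Anxa3, Apoc2, Ecm1, Ephx1 and Top2a overlap another gene on the same strand. The 8 markers of epithelial identity summed to 10000 and 9480 CPM off and 13700 and 14100 CPM on. Of 24 markers of stroma, vessel, nerve and immune cells, 10 were at 0 in all 4 libraries, among them Cd3e and Adgre1, and 14 were at 3 counts or fewer in each. The list summed to 4.25 and 7.05 CPM off and to 14.6 and 16.7 CPM on, led by Csf1r, the receptor of macrophage growth factor, at 0.407 and 1.58 CPM off and 7.83 and 9.82 CPM on, and its part in the results was not tested. Csf1r was not called without on replicate 1, on replicate 2 or off replicate 1. The colonic marker list summed to 0.496 and 1.71 CPM off and to 2.4 and 1.6 CPM on.

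After induction 1941 of 16856 genes tested passed the threshold of an adjusted p under 0.05 (11.5%), 1177 upward (6.98%) and 764 downward (4.53%). Over all genes tested the median log2 change was -0.03, and in 54.8% of genes the on libraries did not overlap the off libraries. A lack of overlap given below for single genes is therefore common. The median called change was 0.87 upward and -0.86 downward. Among the called genes 507 rose and 323 fell by at least 2-fold, and 128 rose and 39 fell by at least 8-fold. The called set shrank to 887 genes without on replicate 2, 1063 without off replicate 1 and 1031 without off replicate 2. It held 1333 genes without on replicate 1.

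**Figure D1:**
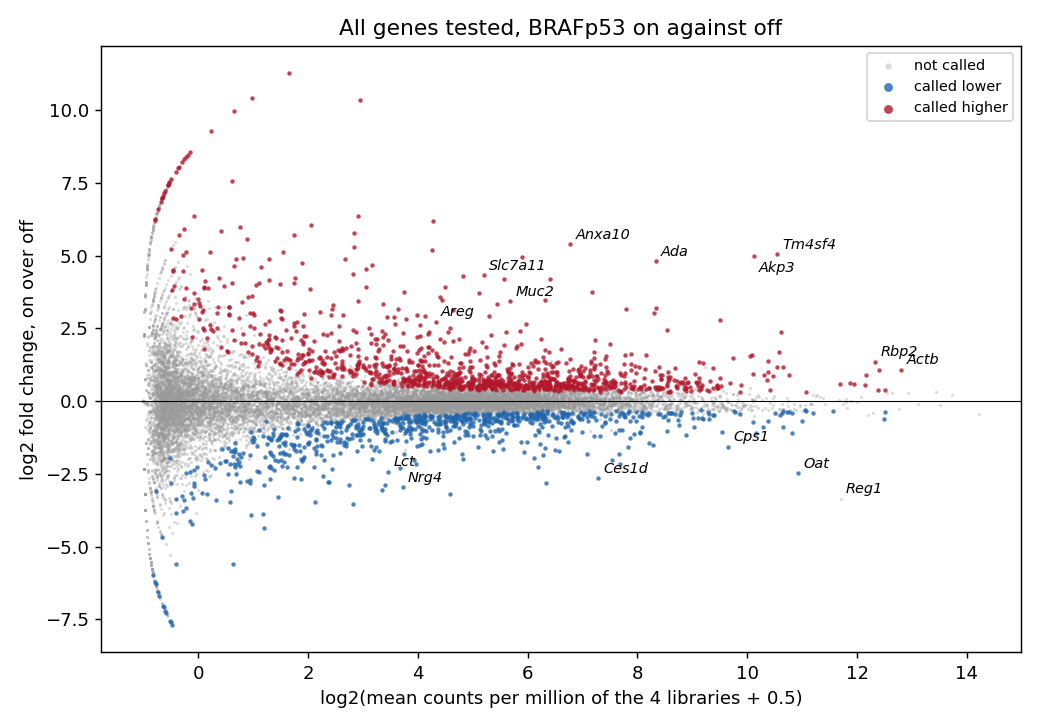
Each point is 1 of the 16856 genes tested, with the mean level of the 4 BRAFp53 libraries on the x axis (log2 of CPM plus 0.5) and the log2 fold change, on over off, on the y axis, red where called higher, blue where called lower and grey where not called. Tm4sf4, Akp3 and Ada combine a high level with a rise of over 4 on the log2 scale, and Oat lies below 0 at a high level. Reg1 lies lower still but was not called.

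The list of ERK feedback regulators holds phosphatases and Sprouty-type inhibitors that dampen the cascade that induces them, together with the galectin Lgals3, which is no such inhibitor: 10 of 16 were called up and 0 down, with a median log2 change of 1.13. Dusp1, a phosphatase of MAP kinases, was at 0.867 and 0.676 CPM off and 4.81 and 5.01 CPM on, a rise of 2.67 ± 0.37 (adjusted p = 0.000411). Spry4, a Sprouty inhibitor of receptor tyrosine kinase signalling, was at 1.61 and 0.747 CPM off and 5.03 and 6.18 CPM on (rise of 2.25 ± 0.38, adjusted p = 0.00189). Lgals3, galectin-3, measured 82.6 and 64.8 CPM off against 306 and 267 CPM on (1.96 ± 0.14, adjusted p = 2.92e-06). For all 3, both on libraries lay above both off libraries. Without off replicate 2, 6 of the 16 were called. Of the immediate early and AP-1 factors 7 of 19 rose and 0 fell (median 0.67), among them Atf3 from 3.11 and 3.35 to 13.7 and 14.9 CPM, Klf4 from 13.04 and 13.6 to 43.4 and 51.4 CPM and Fos from 9.61 and 7.76 to 23.4 and 23.1 CPM. Their log2 rises were 2.15, 1.83 and 1.42 (adjusted p = 0.00148, 1.05e-05 and 0.000101). Without on replicate 2, 4 of the 19 were called. Myc, a growth regulator of the same list, overlapped between states at 101 and 107 CPM off and 109 and 87.1 CPM on (adjusted p = 0.867). Of the ETS factors 3 of 15 were called, all upward (median 0.11), and 1 without on replicate 2 or without off replicate 1. Among the kinases and adaptors of the cascade itself 4 of 20 rose, by at most 0.69, and 0 fell (median 0.17). This count was 0 without on replicate 2 or off replicate 1, 1 without off replicate 2 and 7 without the BRAF on replicate 1, described further down.

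The ligands of the EGF receptor family, which feed into the same cascade from outside the cell, gave 5 rises and 1 fall among 8 genes (median 1.17). Areg, encoding amphiregulin, measured 5.54 and 4.70 CPM off and 31.5 and 36.5 CPM on, a rise of 2.73 ± 0.20 (adjusted p = 3.17e-06). Btc, encoding betacellulin, went from 8.88 and 10.1 to 23.5 and 25.4 CPM (1.36 ± 0.14, adjusted p = 3.89e-05). Hbegf, encoding heparin-binding EGF-like growth factor, went from 7.96 and 7.65 to 14.2 and 16.6 CPM (0.98 ± 0.19, adjusted p = 0.00399). None of these ligands overlapped between states. Ereg, encoding epiregulin, had 0 and 1 counts off and 26 and 44 counts on, a ratio of 65.3 with a 95% interval of 11.3 to 2617 that covers counting error only, and lost its call whenever any 1 of the 4 libraries was left out. Nrg4, a ligand of ERBB4, moved the other way, from 22.5 and 22.6 CPM to 3.03 and 2.76 CPM, and fell by 2.96 ± 0.23 (adjusted p = 4.5e-06).

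**Figure D2:**
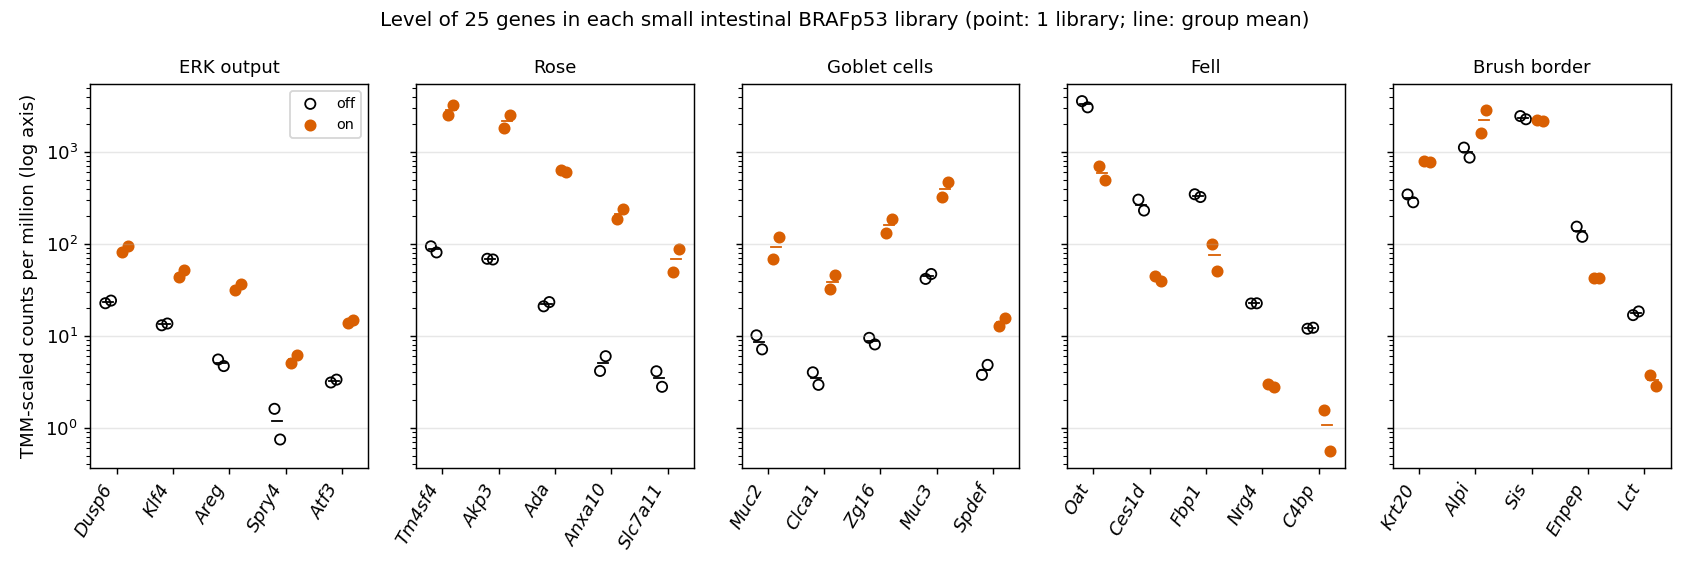
Levels of 25 genes in each of the 4 SI BRAFp53 libraries, in TMM-scaled CPM on a log axis, with open circles for the 2 off libraries, filled circles for the 2 on libraries and a line at each group mean. In the panels of ERK output, rising genes, goblet cells and falling genes the on and off libraries do not overlap, while in the brush border panel Krt20 and Alpi lie higher on, Enpep and Lct lower on, and Sis nearly level.

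Among 48 tested targets of p53 the calls went both ways, with 7 up and 5 down and a median of 0.10. Cdkn1a, the p21 inhibitor of cyclin-dependent kinases, was at 195 and 160 CPM off and 369 and 400 CPM on (1.12 ± 0.14, adjusted p = 0.000135). Plk3, a stress-response kinase, went from 5.73 and 2.81 to 17.6 and 25.3 CPM (2.33 ± 0.33, adjusted p = 0.000515). Ephx1, an epoxide hydrolase, went from 355 and 315 to 161 and 146 CPM and fell by 1.12 ± 0.12 (adjusted p = 3.57e-05). Libraries of these 3 genes did not overlap between states. With libraries left out singly, 7 p53 targets passed the test without on replicate 1, 4 without on replicate 2, 6 without off replicate 1 and 5 without off replicate 2. Of the CDK inhibitors and D cyclins 4 of 12 rose and 1 fell (median 0.13), with 3 calls without either on replicate, 2 without off replicate 2 and 8 without the BRAF on replicate 1. Cdkn1c, the p57 inhibitor, was at 2.46 and 1.90 CPM off and 6.12 and 5.91 CPM on (1.46 ± 0.27, adjusted p = 0.0031).

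Genes of proliferation were called in neither direction in the BRAFp53 organoids. Of 34 DNA replication genes 0 passed the test (edgeR quasi-likelihood), with a median of -0.23 and 3 positive values, and of 30 mitotic genes 0 passed, with a median of -0.23 and 2 positive values. Mki67, which encodes the Ki-67 antigen, measured 220 and 242 CPM off and 206 and 217 CPM on (log2 difference -0.12 ± 0.12, adjusted p = 0.582). Top2a, a topoisomerase of dividing cells, measured 293 and 320 CPM off and 260 and 210 CPM on (-0.38 ± 0.17, adjusted p = 0.189). At an unadjusted p under 0.05, 3 replication and 7 mitotic genes were counted, and DESeq2 called 1 and 2. Without the BRAF on replicate 1, which enters through the shared spread, 2 replication and 5 mitotic genes were called.

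The genes with the largest rises among well expressed genes came from several families. Akp3, an intestinal alkaline phosphatase, was at 68.95 and 67.8 CPM off and 1822 and 2492 CPM on, which is 31.6-fold (log2 4.98 ± 0.29, adjusted p = 5.18e-07). Ada, adenosine deaminase, was at 20.97 and 23.3 CPM off and 637 and 608 CPM on, which is 28.1-fold (4.81 ± 0.12, adjusted p = 8.58e-11). Sprr1a, a cornified envelope protein of stratified epithelia, was at 4.60 and 2.79 CPM off and 129 and 99.7 CPM on (4.95 ± 0.35, adjusted p = 2.07e-06). For these genes the spread between libraries of a state was small beside the change. Slc7a11, the cystine transporter, went from 4.12 and 2.79 to 49.2 and 88.97 CPM, Enpp3, an ectonucleotidase, from 4.11 and 5.59 to 91.3 and 86.1 CPM, and Car2, a carbonic anhydrase, from 4.92 and 4.80 to 66.4 and 61.3 CPM. These rises were 4.32, 4.19 and 3.71 on the log2 scale (adjusted p = 2.54e-05, 1.8e-05 and 4.09e-06). Actb, cytoplasmic actin and a common reference gene, also rose, from 4390 and 4805 to 9346 and 10020 CPM (1.07 ± 0.09, adjusted p = 4.75e-06).

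Markers of fetal and regenerating epithelium had the highest median of the lists: 20 of 26 were called up and 0 down, with a median log2 change of 2.32, or 2.15 with Ly6g, at 0 counts off, set to its bound. The list was chosen with earlier results of these libraries known, so its direction is no independent evidence. Anxa10, an annexin, was at 4.16 and 6.01 CPM off and 189 and 238 CPM on, a rise of 5.39 ± 0.41 (adjusted p = 3.27e-06). Ecm1, an extracellular matrix protein, was at 0.726 and 1.23 CPM off and 23.2 and 48.97 CPM on (5.21 ± 0.50, adjusted p = 1.8e-05). Anxa3 went from 2.85 and 2.60 to 38.4 and 44.6 CPM (3.93 ± 0.24, adjusted p = 7.44e-07). In each of them the lower on library exceeded the higher off library by more than 10-fold. S100a6, a calcium-binding protein, went from 20.8 and 19.1 to 253 and 286 CPM, Plaur, the urokinase receptor, from 3.68 and 3.31 to 20.4 and 34.2 CPM, and Tnfrsf12a, the TWEAK receptor, from 38.2 and 41.7 to 109 and 120 CPM. These changes were 3.75, 2.97 and 1.52 on the log2 scale (adjusted p = 2.14e-08, 3.62e-05 and 1.88e-05). The list held 19 or 20 called members when any 1 of the 4 libraries was left out. Clu, a marker of revival stem cells, was not called at 0.920 and 0.836 CPM off and 1.89 and 1.31 CPM on (adjusted p = 0.488).

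Of the targets of YAP, a coactivator that responds to tension and injury, 5 of 16 rose and 0 fell (median 0.75), and 2 were called when any 1 of the 4 libraries was left out. F3, tissue factor, went from 2.64 and 2.78 to 9.16 and 10.9 CPM (1.89 ± 0.29, adjusted p = 0.000854). Among markers of stomach and serrated lesions 7 of 18 rose and 0 fell, with a median of 1.76, or 1.31 with genes at 0 counts off set to their bounds. Without on replicate 1, 4 were called. Ctse, an aspartic protease, was counted 164 and 88 times on and 0 times in either off library, which against a floor of 3 counts per library is a rise of at least 40.6-fold. Vsig1, a junction protein of gastric epithelium, had 0 counts off and 48 and 50 counts on, at least 15.3-fold higher, and was not called when any 1 of the 4 libraries was left out. Tm4sf4, a tetraspanin-like membrane protein of this list, reached 2517 and 3269 CPM, the highest on level among the 15 well expressed genes with the largest rises. Cldn18, a claudin of the stomach, was not called at 0.336 and 0.605 CPM off and 0.527 and 0.198 CPM on (adjusted p = 0.842).

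**Figure D3:**
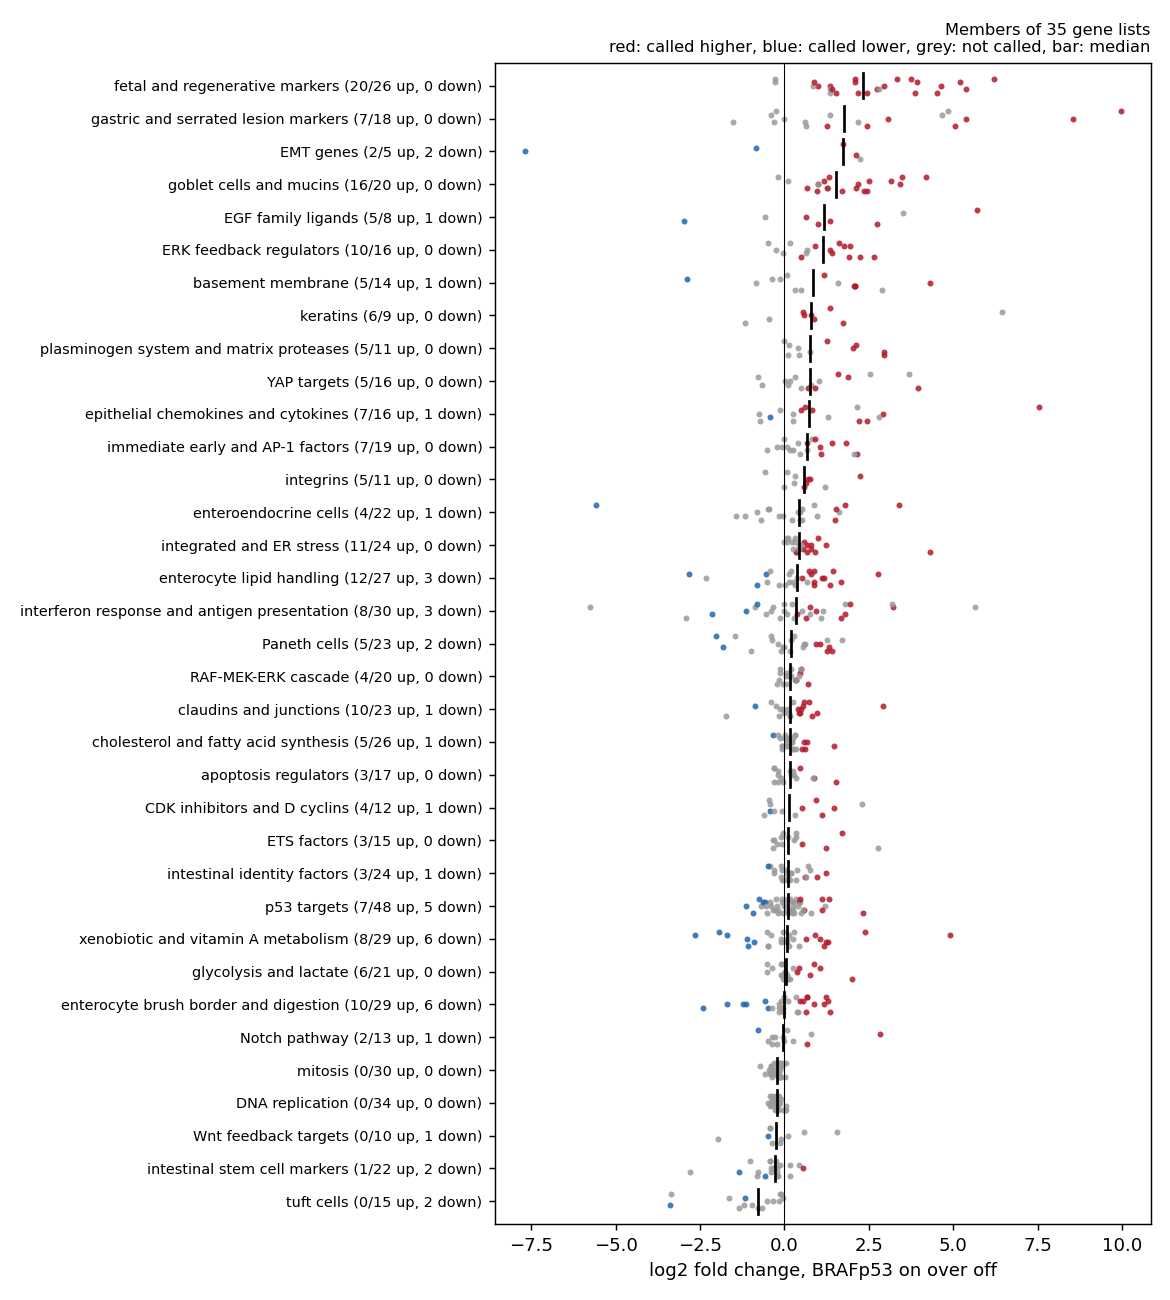
Each row is 1 gene list and each point a tested member, placed by its log2 fold change in BRAFp53 organoids, on over off, red where called higher, blue where called lower and grey where not called, with a bar at the median. The medians of the fetal, gastric, goblet, EGF ligand and ERK feedback lists lie to the right of 0, each with members on its left, the brush border list straddles it, and all 15 tuft cell genes lie to its left.

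Goblet cell genes rose together, with 16 of 20 called up, 0 down and a median of 1.51, and 14 to 16 called with any 1 of the 4 libraries left out. In bulk RNA a change in the share of a cell type and in RNA per cell cannot be told apart. Zg16, a secreted lectin of the mucus, was at 9.52 and 8.08 CPM off and 133 and 188 CPM on (4.19 ± 0.30, adjusted p = 2.07e-06). Clca1, a mucus-processing protease, was at 4.02 and 2.94 CPM off and 32.1 and 45.8 CPM on (3.49 ± 0.32, adjusted p = 1.4e-05). Muc3, a mucin anchored in the brush border membrane, was at 41.7 and 47.1 CPM off and 324 and 468 CPM on (3.16 ± 0.27, adjusted p = 6.87e-06). On and off libraries did not overlap for these products, nor for Spdef, the ETS factor of goblet and Paneth cell maturation, at 3.77 and 4.84 CPM off and 12.8 and 15.5 CPM on (1.72 ± 0.20, adjusted p = 0.000102). Atoh1, the factor that commits cells to the secretory lineage, was not called at 1.26 and 2.60 CPM off and 6.72 and 2.83 CPM on (adjusted p = 0.0615).

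Paneth and enteroendocrine genes were called in both directions, and all 15 tuft cell genes had negative values. Of 23 Paneth cell genes 5 rose and 2 fell (median 0.19), and 4 were called in all without on replicate 1. The antimicrobial peptide gene Defa24 was at 55.3 and 63.2 CPM off and 180 and 115 CPM on (1.31 ± 0.17, adjusted p = 0.000213), whereas the antimicrobial lectins Reg3a and Reg3g fell. Reg3a went from 306 and 287 to 79.1 and 67.7 CPM and fell by 2.01 ± 0.26 (adjusted p = 0.000244). Reg3g went from 376 and 255 to 110 and 68.1 CPM and fell by 1.82 ± 0.30 (adjusted p = 0.00144). Reg1, a further lectin of the Reg family, was at 6277 and 5841 CPM off and 669 and 515 CPM on (-3.36 ± 1.05, adjusted p = 0.0569), missing the threshold in the fit that shares its spread with the BRAF libraries. Without BRAF on replicate 1 Reg1 was called at -3.34 (adjusted p = 3.88e-07). Lyz1, lysozyme, overlapped at 64.7 and 89.9 CPM off and 69.8 and 47.2 CPM on (adjusted p = 0.265). Reads of defensin and Reg genes can be split among near-identical copies, so their values are uncertain. Of 22 enteroendocrine genes 4 rose and 1 fell (median 0.43), with 3 calls without on replicate 1 or off replicate 1. Ghrl, the ghrelin gene, went from 7.56 and 6.90 to 25.2 and 25.3 CPM (1.80 ± 0.23, adjusted p = 0.000212) and Sct, the secretin gene, from 4.02 and 5.09 to 14.1 and 12.1 CPM (1.52 ± 0.21, adjusted p = 0.000346). Somatostatin, Sst, was at 1.45 and 2.67 CPM off and 0 and 0.0761 CPM on (adjusted p = 0.00587). Of 15 tuft cell genes 2 fell and 0 rose (13.3% called, near the 11.5% of all genes tested), with a median of -0.77. Without on replicate 1, 0 were called, and 1 was called with any other of the 4 left out. Dclk1, a kinase that marks tuft cells, was not called at 3.88 and 4.13 CPM off and 1.07 and 1.49 CPM on (adjusted p = 0.0897).

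Stem cell markers leaned downward with few calls, 2 down and 1 up among 22 (median -0.29, 4 positive). Of this list 13.6% was called, near the 11.5% of all genes tested. For the Wnt, Notch and identity lists below the called shares were 10%, 23.1% and 16.7%. Ascl2, a transcription factor of the crypt base, was at 12.5 and 21.4 CPM off and 4.72 and 8.60 CPM on and fell by 1.35 ± 0.32 (adjusted p = 0.0151), but was not called without on replicate 1 or off replicate 2. Lgr5, the receptor that marks stem cells, was at 25.6 and 27.9 CPM off and 18.4 and 12.5 CPM on (log2 difference -0.79 ± 0.27, adjusted p = 0.0836). The states did not overlap for Lgr5, as for 54.8% of all genes tested, and it missed the threshold. In all, 1 stem cell gene was called without either on replicate, 0 without off replicate 2 and 5 without the BRAF on replicate 1. Of 10 targets of Wnt feedback 1 fell and 0 rose (median -0.25). That call, of Lgr4, was lost without either on replicate or without off replicate 2, and 2 genes of the list were called without the BRAF on replicate 1. Of 13 Notch pathway genes 2 rose and 1 fell (median -0.04), with 0 called without on replicate 2 or off replicate 1 and 1 without off replicate 2. Of 24 transcription factors of intestinal identity 3 rose and 1 fell (median 0.11), with 1 called without either on replicate, 0 without off replicate 1 and 2 without off replicate 2.

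Enterocyte genes split. Of 29 genes of the brush border and digestion 10 rose and 6 fell, with a median of 0.00, and 10 were called in all without on replicate 2 or without off replicate 2. Slc15a1, the intestinal peptide transporter, was at 33.7 and 28.9 CPM off and 67.8 and 80.1 CPM on (1.24 ± 0.19, adjusted p = 0.000763). Krt20, a keratin of differentiated cells, was at 345 and 284 CPM off and 807 and 783 CPM on (1.34 ± 0.15, adjusted p = 8.9e-05). Mep1b, the beta subunit of the protease meprin, was at 142 and 132 CPM off and 293 and 375 CPM on (1.28 ± 0.17, adjusted p = 0.00023). Its partner Mep1a, the alpha subunit, went the other way, from 35.1 and 25.1 to 11.8 and 14.05 CPM, and fell by 1.22 ± 0.18 (adjusted p = 0.00068). Lct, lactase, was at 16.8 and 18.4 CPM off and 3.72 and 2.86 CPM on and fell by 2.43 ± 0.17 (adjusted p = 2.07e-06). Enpep, glutamyl aminopeptidase, was at 154 and 119 CPM off and 42.5 and 42.6 CPM on and fell by 1.69 ± 0.18 (adjusted p = 3.89e-05). Sucrase-isomaltase, Sis, was not called at 2457 and 2268 CPM off and 2224 and 2174 CPM on (adjusted p = 0.752).

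Genes of lipid handling tilted upward, with 12 of 27 called up, 3 down and a median of 0.38. Apoc2, an activator of lipoprotein lipase, was at 186 and 182 CPM off and 1149 and 1377 CPM on (2.78 ± 0.16, adjusted p = 5.09e-07). Rbp2, the retinol carrier of enterocytes, was at 2988 and 2844 CPM off and 7063 and 7756 CPM on (1.35 ± 0.10, adjusted p = 3.27e-06). Dgat2, an enzyme of triglyceride synthesis, was at 62.5 and 54.1 CPM off and 138 and 180 CPM on (1.45 ± 0.16, adjusted p = 4.86e-05). Rbp2 was also second to Actb in the gain of CPM among called genes. Enzymes of xenobiotic and vitamin A metabolism went both ways, 8 up and 6 down of 29 (median 0.07). Cyp3a13, a cytochrome P450, was at 509 and 499 CPM off and 2248 and 3014 CPM on (2.38 ± 0.19, adjusted p = 4.58e-06). The carboxylesterase Ces2c rose from 399 and 278 to 756 and 901 CPM (1.29 ± 0.20, adjusted p = 0.000825), while Ces1d fell from 303 and 231 to 44.9 and 39.5 CPM, by 2.66 ± 0.22 (adjusted p = 5.18e-06). The Ces1 genes are near-identical neighbours and share reads, so that their single values are uncertain.

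The genes that fell included enzymes of amino acid and sugar metabolism. Oat, ornithine aminotransferase, was at 3572 and 3057 CPM off and 703 and 490 CPM on and fell by 2.48 ± 0.21 (adjusted p = 8.28e-06), the largest loss of CPM of any called gene. Cps1, which opens the urea cycle, was at 1216 and 1196 CPM off and 459 and 352 CPM on and fell by 1.57 ± 0.27 (adjusted p = 0.00182). Fbp1, an enzyme of gluconeogenesis, was at 347 and 324 CPM off and 99.1 and 51.4 CPM on and fell by 2.16 ± 0.29 (adjusted p = 0.000331). The 3 enzymes lay lower in both on libraries than in both off libraries. Khk, the kinase that takes up fructose into metabolism, went from 1790 and 1452 to 957 and 789 CPM, and Aldh1b1, a mitochondrial aldehyde dehydrogenase, from 1564 and 1572 to 819 and 634 CPM. C4bp, a complement regulator, went from 11.96 and 12.3 to 1.56 and 0.563 CPM, Tnfsf10, the death ligand TRAIL, from 17.6 and 16.8 to 2.69 and 1.49 CPM, and Pigr, which carries IgA across the epithelium, from 2183 and 2003 to 1180 and 1088 CPM. In that order the 5 genes fell by 0.89 ± 0.14, 1.11 ± 0.15, 3.53 ± 0.46, 3.05 ± 0.28 and 0.88 ± 0.14 in log2 units (adjusted p = 0.00129, 0.000284, 0.000234, 1.44e-05 and 0.00127). Mt1, a metallothionein that binds zinc and copper, went from 2202 and 2704 to 1056 and 1226 CPM (-1.10 ± 0.12, adjusted p = 3.67e-05). The mitochondrial share of all counts was 4.37% and 5.92% off and 3.64% and 3.73% on, and its part in these falls was not tested.

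Lists of metabolism and stress had small medians. Of 24 genes of the integrated and endoplasmic reticulum stress response 11 rose and 0 fell (median 0.43, the largest being the 4.32 of Slc7a11), with 3 called without on replicate 2, 4 without off replicate 1 and 5 without off replicate 2. Trib3, a pseudokinase induced by ATF4, was at 24.4 and 20.5 CPM off and 48.7 and 56.1 CPM on (1.22 ± 0.17, adjusted p = 0.000333). Of 21 genes of glycolysis and lactate transport 6 rose and 0 fell (median 0.06), with 3 called without off replicate 2. Slc16a3, a lactate exporter, was at 84.8 and 71.8 CPM off and 167 and 160 CPM on (1.06 ± 0.16, adjusted p = 0.000778). Of 26 genes of cholesterol and fatty acid synthesis 5 rose and 1 fell (median 0.17), with 3 called without off replicate 2. Scd1, the stearoyl-CoA desaturase, was at 487 and 426 CPM off and 1242 and 1276 CPM on (1.46 ± 0.12, adjusted p = 4.98e-06). Of 17 regulators of apoptosis 3 rose and 0 fell (median 0.16), with 1 called without on replicate 2 or off replicate 1.

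Of 16 chemokines, cytokines and their regulators 7 rose and 1 fell (median 0.72), with 5 called without either off replicate. Il1a, the alarmin interleukin-1 alpha, had 1 and 0 counts off and 89 and 165 counts on, a ratio of 237 with a 95% counting interval of 42.2 to 9400 (adjusted p = 0.00225). Il1rn, the antagonist of its receptor, was at 1.58 and 2.51 CPM off and 13.8 and 8.52 CPM on (2.45 ± 0.27, adjusted p = 5.28e-05). Cxcl16, a membrane-bound chemokine, was at 4.55 and 3.36 CPM off and 29.2 and 30.8 CPM on (2.92 ± 0.25, adjusted p = 6.87e-06), and Ccl20, which attracts CCR6 cells, at 4.57 and 6.32 CPM off and 20.1 and 30.2 CPM on (2.21 ± 0.33, adjusted p = 0.000663). In all 4 the states did not overlap. Genes of interferon response and antigen presentation went both ways, 8 up and 3 down of 30 (median 0.34). With libraries left out singly, 7 of the 30 were called without on replicate 1, 5 without on replicate 2, 4 without off replicate 1 and 5 without off replicate 2. Ifit1, an antiviral effector, was at 0.761 and 0.819 CPM off and 3.40 and 2.66 CPM on (1.94 ± 0.39, adjusted p = 0.00557), but was not called without off replicate 1. Psmb8, a subunit of the immunoproteasome, was at 1.42 and 1.25 CPM off and 0.309 and 0.289 CPM on (-2.15 ± 0.46, adjusted p = 0.0086), but was not called without on replicate 2.

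AP-1 factors bind the letters TGANTCA, and 5.61% of 14177 RefSeq promoters of tested genes (build GRCm38.p6, 250 bases before to 50 after the start of transcription, either strand) held a match. Matches to the ETS letters CCGGAAGT were in 7.49% and to the HNF4 letters CAAAGTCCA in 0.543% of the same promoters. A promoter was available for 909 of the 1177 called-up, 589 of the 764 called-down and 11155 of the 16856 tested genes. Among these promoters 9.01% of called-up and 6.94% of called-down ones held an AP-1 match. For ETS the shares were 4.97% and 3.47%, and for HNF4 0.589% and 1.41% (7 and 11 promoters). Genes with no promoter are left out of these shares, and differences between shares were not tested. Of 101 named called-up genes with a promoter 20 held a TGANTCA match. The 250 bases before the start are shown for the 3 named genes called higher with a TGANTCA match and the largest rises, with matches in capitals, so that the positions can be seen. A match is a description and not evidence of binding. Il1a (chr2:129309973-129310222, minus strand) held 1 match that began 12 bases before the start. Slc10a2, the ileal bile acid transporter, with 1 and 0 counts off and 38 and 72 counts on, lost its call without on replicate 2 or either off replicate. Its window lies on chr8:5105288-5105537, minus strand, and it held 1 match that began 118 bases before the start. Anxa10 (chr8:62123194-62123443, minus strand) held 2 matches, and the farther began 180 bases before the start.
Il1a: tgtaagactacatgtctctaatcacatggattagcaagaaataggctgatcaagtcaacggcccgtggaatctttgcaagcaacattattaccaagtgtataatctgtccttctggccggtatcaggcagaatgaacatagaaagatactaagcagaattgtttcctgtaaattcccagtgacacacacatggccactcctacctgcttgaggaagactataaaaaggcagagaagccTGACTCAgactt
Slc10a2: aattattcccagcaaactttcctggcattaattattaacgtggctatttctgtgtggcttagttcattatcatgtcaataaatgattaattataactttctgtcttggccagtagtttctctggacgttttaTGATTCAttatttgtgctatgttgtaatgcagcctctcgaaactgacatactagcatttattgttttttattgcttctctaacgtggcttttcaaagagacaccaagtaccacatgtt
Anxa10: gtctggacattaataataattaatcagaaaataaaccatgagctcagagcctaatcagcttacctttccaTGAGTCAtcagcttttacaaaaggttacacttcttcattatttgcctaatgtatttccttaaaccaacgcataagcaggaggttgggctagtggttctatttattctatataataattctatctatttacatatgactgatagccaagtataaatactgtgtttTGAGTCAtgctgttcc

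Calls among keratin, junction and matrix genes were mostly upward. Of 9 tested keratins 6 rose and 0 fell (median 0.80), and 6 were called with any 1 of the 4 libraries left out. Krt18 was at 532 and 528 CPM off and 912 and 929 CPM on (0.80 ± 0.09, adjusted p = 5.34e-05) and Krt23 at 14.8 and 13.2 CPM off and 47.9 and 44.8 CPM on (1.73 ± 0.19, adjusted p = 5.7e-05). Of 23 claudin and junction genes 10 rose and 1 fell (median 0.17), with 4 called without on replicate 2, 7 without off replicate 1 and 4 without off replicate 2. Cldn4, a claudin that seals tight junctions, was at 9.03 and 9.09 CPM off and 74.3 and 62.7 CPM on (2.92 ± 0.21, adjusted p = 2.07e-06), and the pore-forming Cldn2 at 277 and 277 CPM off and 484 and 498 CPM on (0.83 ± 0.15, adjusted p = 0.00277). Of 14 basement membrane genes 5 rose and 1 fell (median 0.85), with 3 called without either on replicate. Nid1, nidogen, was at 2.12 and 3.24 CPM off and 45.2 and 60.99 CPM on (4.31 ± 0.26, adjusted p = 6.73e-07). Of 11 integrins 5 rose and 0 fell (median 0.57), with 3 called without on replicate 1 and 1 without on replicate 2 or off replicate 2. Itga5, the fibronectin receptor subunit, was at 1.15 and 1.19 CPM off and 5.74 and 5.24 CPM on (2.23 ± 0.36, adjusted p = 0.00128). Of 11 genes of the plasminogen system and matrix proteases 5 rose and 0 fell (median 0.77), with 3 called without either off replicate. Of 13 genes of epithelial-mesenchymal transition only 5 were expressed enough to test, of which 2 rose and 2 fell. Vim, vimentin, was at 1.35 and 2.79 CPM off and 7.10 and 6.58 CPM on (adjusted p = 0.0104), and Tgfbi and Snai2 were called downward. Of the list 2 were called without on replicate 1, 1 without on replicate 2, 1 without off replicate 1 and 3 without off replicate 2, and Vim was not called without off replicate 1.

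The response of BRAFp53 organoids was then set beside that of organoids with BRAFV600E alone, in which 17.5% of genes were called higher and 14.2% lower. The difference of the responses, tested in the same fit, passed the threshold for 1383 genes (8.20%), of which 325 (1.93%) were higher and 1058 (6.28%) lower in BRAFp53. A difference of genotype is here also a difference of donor culture. The cultures differed in Xist, at 111 to 150 CPM in the 4 BRAFp53 libraries and 0.206 to 15.4 CPM in the BRAF libraries, and in the Y-linked Ddx3y, at up to 3 counts and at 30.5 to 36.2 CPM, so sex of the donor and genotype cannot be told apart. BRAF on replicate 1 stood apart, with Xist at 15.4 CPM against 0.206 to 0.437 CPM and Reg1 at 769 CPM against 11.4 to 24.3 CPM in the other 3 BRAF libraries. Without it 2128 genes differed, 934 higher and 1194 lower in BRAFp53, so that the share of higher calls moved from 23.5% to 43.9%. The count was 920 without BRAFp53 on replicate 1, 763 without BRAFp53 on replicate 2, 597 without BRAFp53 off replicate 1 and 634 without BRAF off replicate 2.

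Among the lists, that of the brush border held the largest share of genes that differed. In BRAF organoids 28 of the 29 were called higher (median 1.64), against 10 in BRAFp53 organoids (median 0.00), and the responses differed for 26 genes, all lower in BRAFp53, or 27 without BRAF on replicate 1. For Anpep, aminopeptidase N, the BRAF response was 3.26 and the BRAFp53 response -0.59, a difference of -3.85 (adjusted p = 2.15e-06, and -3.99 without BRAF on replicate 1). Its fall in BRAFp53 organoids was not called without either on replicate or without off replicate 1. For Enpep the responses were 1.54 and -1.69, a difference of -3.23 (adjusted p = 2.19e-05, and -3.44 without that library). Lactase differed likewise, by -3.30 (adjusted p = 1.16e-05, and -3.35 without that library). Slc15a1 rose in both, by 4.25 in BRAF and 1.24 in BRAFp53, a difference of -3.01 (adjusted p = 4.68e-05, and -3.21 without that library). Of the lipid list 16 of 27 differed and of the xenobiotic list 18 of 29, all lower in BRAFp53. Without BRAF on replicate 1 these counts were 18, of which 17 were lower, and 19.

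Paneth, goblet and stem cell genes differed mostly the other way. Of 22 enteroendocrine genes 4 differed, 1 higher and 3 lower in BRAFp53, or 3 higher and 2 lower without BRAF on replicate 1. Paneth cell genes had a median of -1.73 in BRAF and 0.19 in BRAFp53, and 14 of 23 responses differed, all higher in BRAFp53, or 13 without BRAF on replicate 1. Defa24 went from a BRAF response of -1.26 to 1.31, a difference of 2.58 (adjusted p = 5.57e-05). Of 20 goblet cell genes 10 differed, 9 of them higher, with a median of 0.63 in BRAF and 1.51 in BRAFp53. Spdef was at 0.01 in BRAF and 1.72 in BRAFp53, a difference of 1.71 (adjusted p = 0.00289, and 1.69 without BRAF on replicate 1). Of 22 stem cell genes 6 differed, all higher in BRAFp53, and 15 without BRAF on replicate 1. Lgr5 was at -2.38 in BRAF and -0.79 in BRAFp53, a difference of 1.58 (adjusted p = 0.0285, and 2.19 without that library). The Lgr5 difference was not called without BRAFp53 on replicate 1, either BRAFp53 off replicate, BRAF on replicate 2 or BRAF off replicate 2, nor with the replicate block. The proliferation lists turned on that same library: 0 of 34 replication and 0 of 30 mitotic genes differed in the 12 libraries (edgeR), and 23 and 27, all higher in BRAFp53, without it. At an unadjusted p under 0.05 the counts in the 12 libraries were 10 and 9, and DESeq2 called 6 and 5. Their BRAF medians were -0.70 and -0.77. Akp3 differed by 2.53 in favour of BRAFp53 (adjusted p = 0.00106, and 2.16 without that library).

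The shares of ERK output, fetal and p53 genes that differed are to be read beside the 8.20% of all genes. Of 16 feedback regulators 3 differed, Lgals3 among them and all lower in BRAFp53, with medians of 0.67 in BRAF and 1.13 in BRAFp53, and 5 differed without BRAF on replicate 1, 1 higher and 4 lower. Of 19 immediate early factors 0 differed by edgeR (4 at an unadjusted p under 0.05) and 0 by DESeq2, with medians of 0.40 and 0.67, and 3 differed without that library, 1 higher and 2 lower. Dusp6, a phosphatase of the feedback list, was another of those 3, with a difference of -1.20 (adjusted p = 0.00775, edgeR quasi-likelihood test). Without BRAF on replicate 1 the Dusp6 difference was -1.28. Areg was at 2.57 in BRAF and 2.73 in BRAFp53, a difference of 0.16 ± 0.27 (adjusted p = 0.793). Of 26 fetal markers 3 differed, all lower in BRAFp53, with medians of 2.78 and 2.32. Of 48 p53 targets 6 differed, all lower in BRAFp53, whereas 12 of 49 differed without BRAF on replicate 1, 6 in each direction. Cdkn1a was at 1.65 in BRAF and 1.12 in BRAFp53, a difference of -0.54 ± 0.19 (adjusted p = 0.106). Trp53 itself was at -0.62 in BRAF and 0.52 in BRAFp53, a difference of 1.14 (adjusted p = 0.00299). Only in BRAFp53 organoids did induction release a silent p53R172H allele, so allele release and regulation of Trp53 cannot be told apart.

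**Figure D4:**
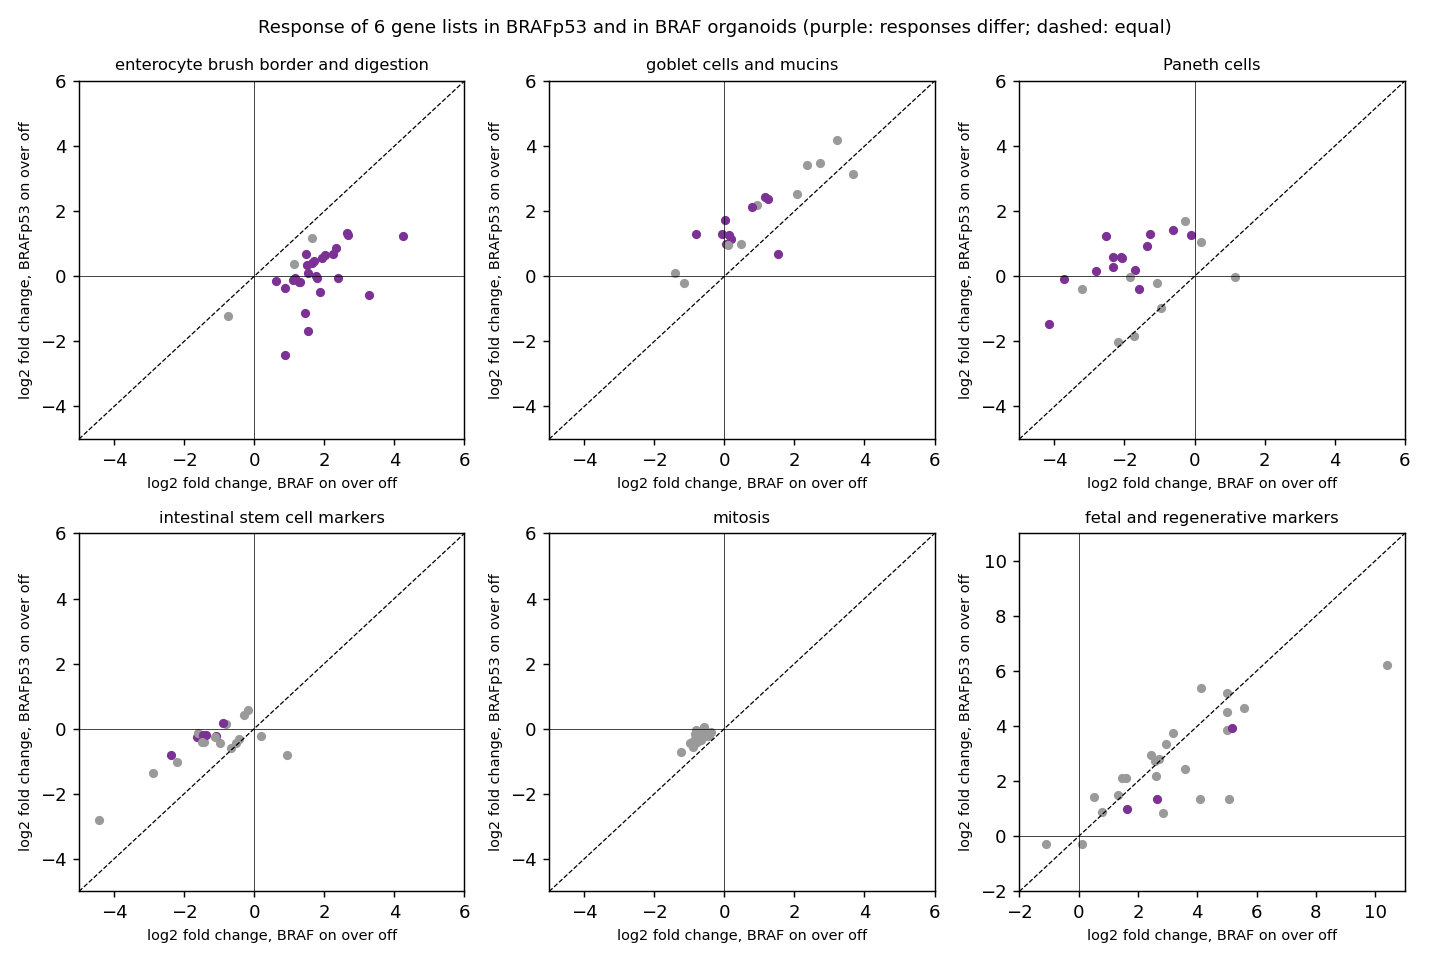
Each panel is 1 gene list and each point a tested member, with its log2 fold change, on over off, in BRAF organoids on the x axis and in BRAFp53 organoids on the y axis, purple where the responses differ at an adjusted p under 0.05, with a dashed line at equal responses. Brush border genes lie below the line (26 of 29 differ), Paneth and stem cell genes mostly above it, and fetal markers along it. BRAF on replicate 1 is included.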

How the data were processed

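Whole gene counts of bulk RNA-seq libraries were used as deposited by the authors, who trimmed reads (Trimmomatic 0.36) and aligned and counted them with STAR 2.5.2b on mm10, as the study's methods give (the labels name both mm10 and mm9, with no role). The strand setting is not given in the sources used here. Of 45706 genes, 45143 matched a GENCODE symbol. The 12 SI libraries (44350747 to 68214835 counts each) were fitted together with 6 groups in edgeR 4.0.16 (R 4.3.3) by the quasi-likelihood test, after filterByExpr and TMM scaling, which left 16856 genes, and p-values were adjusted by Benjamini-Hochberg with a threshold of 0.05. How the BRAFp53 response differed from the BRAF response was tested as a contrast of the same fit. Other settings were RLE scaling, no and stricter filters, DESeq2 1.42.0, limma-voom 3.58.1, a minimal change, left-out libraries and a replicate block. The script was tested on simulated data. Groups follow the labels.

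The organoid comparison, its members and the gene lists were chosen with earlier results of these data known. Named genes were Braf and Trp53, up to 4 called members per direction of each list (the 2 most abundant of a list with no call), the 15 largest changes per direction among called genes with an average log2 CPM of at least 3, the 10 largest differences in CPM per direction, and the 10 largest differences from BRAF per direction. Uncalled list members (Atoh1, Cldn18, Clu, Dclk1, Lyz1, Myc and Sis) were picked after their values were seen. Colon libraries were not used. Promoters came from RefSeq (GRCm38.p6).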

Additional observations from a re-analysis of the deposited data

Results flagged for a closer look

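The response of BRAFp53 organoids differed from that of BRAF organoids, by the test of the difference in the edgeR quasi-likelihood fit, for 1383 genes. Among the lists this held for 26 brush border, 16 lipid handling, 18 xenobiotic and vitamin A, 14 Paneth cell, 10 goblet cell and 6 stem cell genes. All values below are the BRAFp53 response minus the BRAF response on the log2 scale, with genotype and donor culture not to be told apart.

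Genes with a negative difference included brush border products. The difference was -6.95 for Fabp6, the ileal bile acid-binding protein, -3.85 for Anpep, -3.30 for Lct, -3.23 for Enpep and -3.01 for Slc15a1. It was -3.96 for the transporter Flvcr2, -3.69 for Npl, an enzyme of sialic acid breakdown, -3.33 for the kinase Sgk1, -2.44 for Nid1 and -1.23 for Mt1. Without BRAF on replicate 1 these were -7.33, -3.99, -3.35, -3.44, -3.21, -4.08, -3.70, -3.36, -2.61 and -1.29 in the same order. Fabp6 had 7 and 8 counts off and 1 and 2 counts on in BRAFp53 organoids, so its difference is imprecise, and it was not called with limma-voom.

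Genes with a positive difference, by a larger rise or a smaller fall in BRAFp53 organoids, included secretory and crypt products. The difference was 2.58 for Defa24, 2.62 for Defa30, 2.28 for Defa17, 1.71 for Spdef, 1.76 for Hepacam2 and 1.58 for Lgr5. It was 2.53 for Akp3, 1.89 for Car2, 1.62 for Ankrd22, 1.58 for Sprr1a, 1.53 for Pimreg and 1.14 for Trp53. Without BRAF on replicate 1 these were 2.59, 2.65, 2.20, 1.69, 1.97, 2.19, 2.16, 2.60, 1.34, 1.33, 2.29 and 1.31 in the same order, and Sprr1a no longer passed the threshold. With single libraries left out, Pimreg and Car2 lost their calls in 7 fits each, Sprr1a in 6, Lgr5 in 5 and Ankrd22 in 2 of the 8. The defensin genes are near-identical copies, so the values of single members are uncertain, and Ankrd22 overlaps a gene on the opposite strand. Of the genotypes compared, BRAFp53 organoids alone carried a Trp53 allele that was silent before induction.

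For 3 further genes a library or the donor culture stood apart. Reg1 differed by -7.62, and by -2.52 without BRAF on replicate 1, whose Reg1 level was 769 CPM against 11.4 to 24.3 CPM in the other BRAF libraries. The Reg1 difference was not called without BRAF off replicate 2. Xist differed by -4.71, and by 0.55 without that library. The Xist difference was also not called in 6 of the other 7 fits with a library left out. Rps4l, with a difference of -3.12, was at 192 to 204 CPM in BRAF libraries and 0.152 to 2.28 CPM in BRAFp53 libraries.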

How the results depend on the processing

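The count of 1941 genes called between on and off BRAFp53 organoids was 1935 with RLE scaling and 2531 with DESeq2, 830 with an absolute log2 change of at least 1 also asked for, and 887 to 2274 with 1 library left out, the highest being without BRAF on replicate 1. In those last fits the lone library is assumed to vary like the other groups. The count of 1383 differences from BRAF was 2108 with DESeq2, 715 with the minimal change of 1, and 597 to 2128 with 1 library left out. The lowest count came without BRAFp53 off replicate 1 and the highest without BRAF on replicate 1. The causes were not tested. Of the 203 named genes none that was called changed direction between on and off under any alternative, while Pcna and Rrm2, not called, took both signs near 0. Of 67 named differences from BRAF, 8 to 26 were not called in their direction with 1 library left out, the most without BRAF off replicate 2, 7 with limma-voom and 5 with the replicate block. Of the differences from BRAF the sign turned for Xist alone, to 0.55 without BRAF on replicate 1, against -5.63 without BRAF on replicate 2. Counts of called list members moved by over 1.5 times in 0 to 8 of 39 lists under the other scaling, filters, tools, the block and smaller fits, in 22 with the minimal change and in 16 to 22 with 1 BRAFp53 library left out. Fits for on against off without BRAF on replicate 1, with the 8 BRAFp53 and p53 libraries alone, and the alternatives for the difference of single genes were chosen after seeing the data. Over all settings the median log2 change of all genes lay between -0.03 and 0.

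Replicate numbers did not pair the samples: the deviations of same-numbered on and off libraries correlated at r = -0.00939 in BRAFp53, 0.0848 in BRAF and -0.0591 in p53. With the replicate number as a block, 1657 genes were called between on and off and 1082 differed from BRAF. Genes at 0 or 1 counts in each library of 1 state, such as Ereg, Vsig1 and Snai2, have imprecise fold changes.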

Other observations

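Gene families picked by symbol after the values were seen showed further patterns in BRAFp53 organoids, on over off. Annexins, which bind calcium and membranes, gave 9 rises and 0 falls among 11 tested genes (median log2 change 1.34). The S100 proteins, small calcium sensors, gave 8 rises and 0 falls among 14 (median 0.99). Of 81 protein-coding genes of cytosolic ribosomal proteins 14 fell and 0 rose, 79 had negative values and the median was -0.25. Of 13 protein-coding genes of the mitochondrial genome 2 fell, and all 13 had negative values (median -0.30). The mitochondrial ribosomal RNA mt-Rnr1, outside that count, fell too, but was not called without either on replicate or without off replicate 2. Zinc finger genes with Zfp symbols gave 3 rises and 21 falls among 337, with 257 negative values and a median of -0.26. Its 6.23% of genes called lower lies near the 4.53% of all genes. Solute carriers went both ways, with 47 rises and 24 falls among 284 and a median of 0.15. These families overlap the lists of the report in part, and no test was made of them as sets.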
